A study of Mus musculus with 6 samples.

Results

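Excitatory neuron 14 is a small cluster of glutamatergic neurons in mouse hippocampal tissue that was marked by Esr2 and Unc13c. Its members were the nuclei that the authors' deposited annotation assigned to that cluster, 103 of 28650 nuclei in all and of 12428 nuclei of the excitatory class. Single-nucleus RNA was measured with 10x Genomics 3' chemistry in hippocampi of male Tau P301S (PS19) mice, a transgenic line that carries mutant human tau and develops tau pathology. Every library analysed here came from such mice, and mice without the transgene were not analysed here. The libraries were 1 each of TBI VEGFC left, TBI GFP left, TBI VEGFC right, TBI GFP right, sham VEGFC right and sham GFP right hippocampus. TBI is a mild traumatic brain injury by controlled cortical impact on the right hemisphere, and sham is the operation without it. VEGFC mice were given AAV-VEGFC, an adeno-associated virus coding for a growth factor of lymphatic vessels, and GFP mice were given AAV-GFP, the control virus. The sources used here give neither the promoter of the virus nor the age and number of mice behind a library.

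Each combination of injury, vector and side was 1 library, so a difference between single libraries is unreplicated. The cluster held 6 nuclei and 60603 UMIs (unique molecular identifiers, counted molecules) in TBI VEGFC left. It held 8 nuclei and 38048 UMIs in TBI GFP left, 16 and 103059 in TBI VEGFC right, 23 and 114154 in TBI GFP right, 34 and 153758 in sham VEGFC right, and 16 and 93786 in sham GFP right. The left libraries therefore carried the least precise values of the cluster. Whole libraries held 15358208 to 18379148 UMIs. Levels are given as CPM, counts per 1000000 UMIs of the summed nuclei, and 1 UMI was worth 26.3 CPM in TBI GFP left and 10.7 CPM in sham GFP right. In the files, 91 barcode sequences occurred in more than 1 library, and 2 nuclei of the cluster carried one of these.

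Esr2 codes for oestrogen receptor beta, a nuclear receptor that binds oestrogens and acts as a transcription factor. Unc13c codes for Munc13-3, a member of the Munc13 family, which primes synaptic vesicles for release and is best known from the cerebellum. Vwc2l codes for a secreted protein with von Willebrand factor C domains of the kind that bind bone morphogenetic proteins (BMP). Adamts2 codes for a protease that trims procollagen, and Rspo2 for R-spondin 2, a secreted protein that strengthens Wnt signalling through Lgr receptors.

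The promoters of Esr2 and Unc13c, the genes after which the cluster is called, are shown because their transcripts set it apart from the other excitatory nuclei. Both genes lie on the minus strand, and the sequences are from RefSeq (GRCm38.p6), 250 bases before and 50 after the annotated start, with the bases from the start onward in capitals. Esr2 spans chr12:76120419-76177259 and Unc13c spans chr9:73479422-73968966 in the mm10 gene annotation.
Esr2 promoter, chr12:76177210-76177509, minus strand: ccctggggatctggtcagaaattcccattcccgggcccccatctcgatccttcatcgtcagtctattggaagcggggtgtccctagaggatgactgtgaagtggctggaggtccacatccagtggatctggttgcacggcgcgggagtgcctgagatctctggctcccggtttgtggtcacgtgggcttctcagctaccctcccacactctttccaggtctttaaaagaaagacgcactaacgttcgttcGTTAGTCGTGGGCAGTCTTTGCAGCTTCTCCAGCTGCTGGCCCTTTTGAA
Unc13c promoter, chr9:73968988-73969287, minus strand: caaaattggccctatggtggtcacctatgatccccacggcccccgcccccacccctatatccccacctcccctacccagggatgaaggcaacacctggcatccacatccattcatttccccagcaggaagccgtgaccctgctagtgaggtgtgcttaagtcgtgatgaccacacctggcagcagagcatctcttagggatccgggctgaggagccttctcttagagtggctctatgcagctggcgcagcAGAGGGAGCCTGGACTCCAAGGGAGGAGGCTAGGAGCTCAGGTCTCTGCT
An oestrogen response motif was searched on both strands as AGGTCA or TGACCT, and the palindromic element as GGTCA and TGACC with NNN between them, which reads the same on both strands and overlaps the shorter motif. Neither sequence held either motif. Of the 21 named leading genes given below, 17 had a RefSeq promoter, with 26 windows. The shorter motif was in 1 of these 26 windows, that of Grm8, against 16.3% of 32851 windows of all genes, and the palindromic element was in 0 of 26 against 0.07%.

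The markers that give the cluster its label were high in it, which its choice by such genes made likely. Unc13c was at 858 CPM in TBI VEGFC left, 578 in TBI GFP left, 475 in TBI VEGFC right, 526 in TBI GFP right, 410 in sham VEGFC right and 256 in sham GFP right. The other excitatory nuclei of the same libraries had 10.1 to 22.0 CPM, so the ranges did not overlap. Esr2 was at 33.0 CPM in TBI VEGFC left, 52.6 in TBI GFP left, 38.8 in TBI VEGFC right, 96.4 in TBI GFP right, 65.0 in sham VEGFC right and 42.7 in sham GFP right. It stood at 0.232 to 1.07 CPM in the other excitatory nuclei of these libraries, below every library of the cluster. These levels rest on 33 Esr2 UMIs in all, in 25 nuclei. Each left library had 2 of them, below the limit of 3 counts. Clusters were made from such genes, so their excess over other nuclei is a description, with no test.

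Vwc2l ranged from 501 CPM in sham GFP right to 894 in TBI GFP left, against 69.2 to 88.3 CPM in the other excitatory nuclei. Adamts2 ranged from 85.3 CPM in sham GFP right to 264 in TBI VEGFC left, against 7.85 to 15.6 CPM. Rspo2 ranged from 139 CPM in sham GFP right to 462 in TBI VEGFC left, against 28.8 to 40.1 CPM. For each of these markers the cluster's lowest library lay above the highest library of the other excitatory nuclei. Of the 5 markers, sham GFP right had the lowest level of 4, and TBI VEGFC left had the lowest Esr2.

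**Figure D1:**
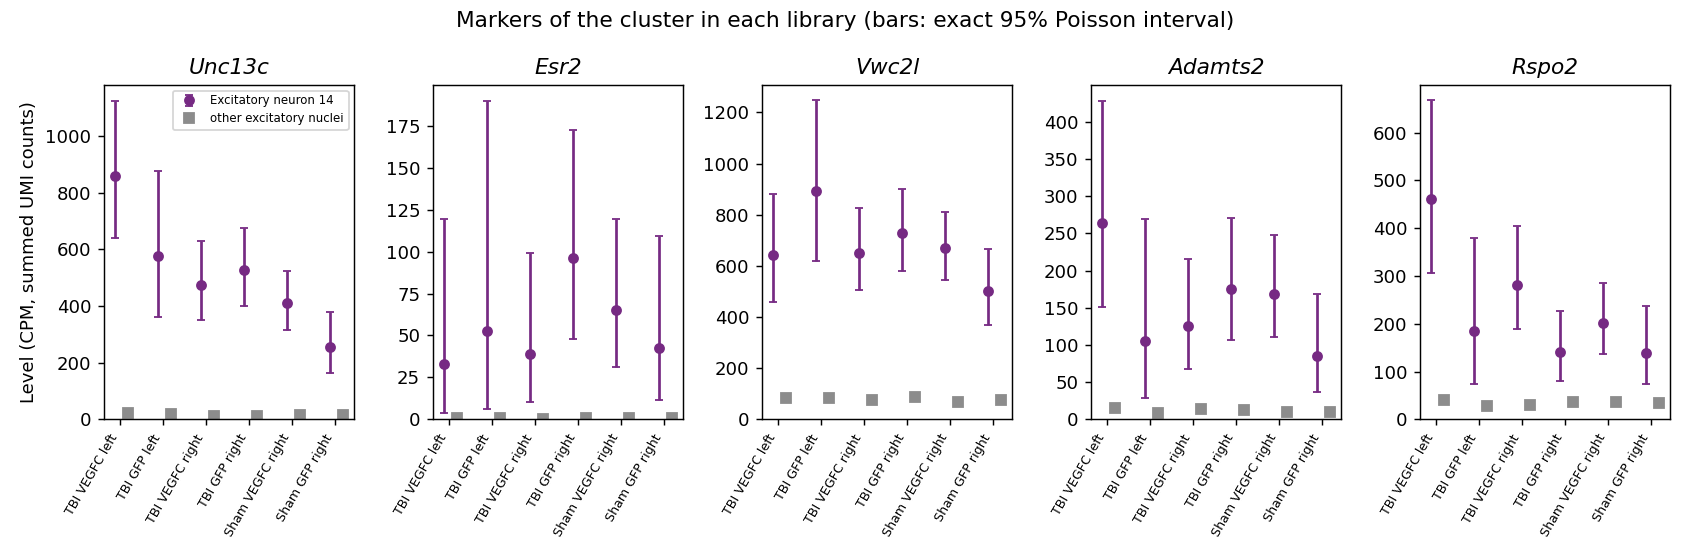
Levels of the 5 markers (vertical axis, CPM of summed UMI counts) in each of the 6 libraries, for Excitatory neuron 14 (circles, with exact 95% Poisson intervals of the counting error) and for all other excitatory nuclei of the same library (squares). Every circle lies above every square of its gene, and the Esr2 intervals are wide, since that gene rests on 33 UMIs.

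Unc13c had a UMI in 64.1% of the cluster's nuclei, against 4.64% of the other excitatory nuclei and 0.442% of oligodendrocytes, given as the background. The values were 24.3%, 0.284% and 0% for Esr2, 87.4%, 8.99% and 0.221% for Vwc2l, and 49.5%, 9.66% and 0.221% for Rspo2. Adamts2 had a UMI in 48.5%, 4.05% and 6.41%, and oligodendrocytes expressed it at 50.3 CPM. Median depth was 5075 UMIs in the cluster, 4219 in the other excitatory nuclei and 1307 in oligodendrocytes. With each nucleus thinned to 1000 UMIs, Unc13c was in 25.2% of the cluster and 1.60% of other excitatory nuclei, Vwc2l in 44.7% and 4.80%, and Esr2 in 4.85% and 0%. The thinned shares of other excitatory nuclei are over 1000 nuclei drawn at random, and those of Esr2 are near the level of 1 UMI.

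The markers met within single nuclei, which the excess of each in the cluster made likely. The counts are a description, and the number to be had from the single shares was not computed. At least 3 of the 5 had a UMI in 60 of the cluster's 103 nuclei, or 58.3%, against 45 of 12325 other excitatory nuclei, or 0.365%. Esr2 and Unc13c were found together in 22 nuclei of the cluster and in 1 other excitatory nucleus. Unc13c and Vwc2l were found together in 62 nuclei, or 60.2%, against 94 other excitatory nuclei, or 0.763%. No nucleus of the other excitatory clusters had 4 or 5 of the markers, while 34 nuclei of Excitatory neuron 14 did, 25 with 4 and 9 with 5.

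Across the 32 clusters, Esr2 was highest in Excitatory neuron 14, at 58.6 CPM, followed by the mixed excitatory and inhibitory class at 22.0 CPM and Excitatory neuron 13 at 8.56 CPM. Adamts2 was also highest there, at 154 CPM, followed by fibroblasts at 120 CPM. Unc13c was second, at 479 CPM, after Inhibitory neuron 5 at 598 CPM. Fibroblasts, oligodendrocyte precursors and Inhibitory neuron 7 followed, at 454, 381 and 364 CPM. Among the excitatory clusters, Excitatory neuron 9 came next, at 178 CPM and with a UMI in 33.9% of its nuclei. Rspo2, at 220.1 CPM, was second to Excitatory neuron 16 at 268 CPM. Vwc2l, at 662 CPM, was the fourth, after Excitatory neuron 12 at 1389, Excitatory neuron 6 at 820 and Excitatory neuron 16 at 701.5 CPM.

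**Figure D2:**
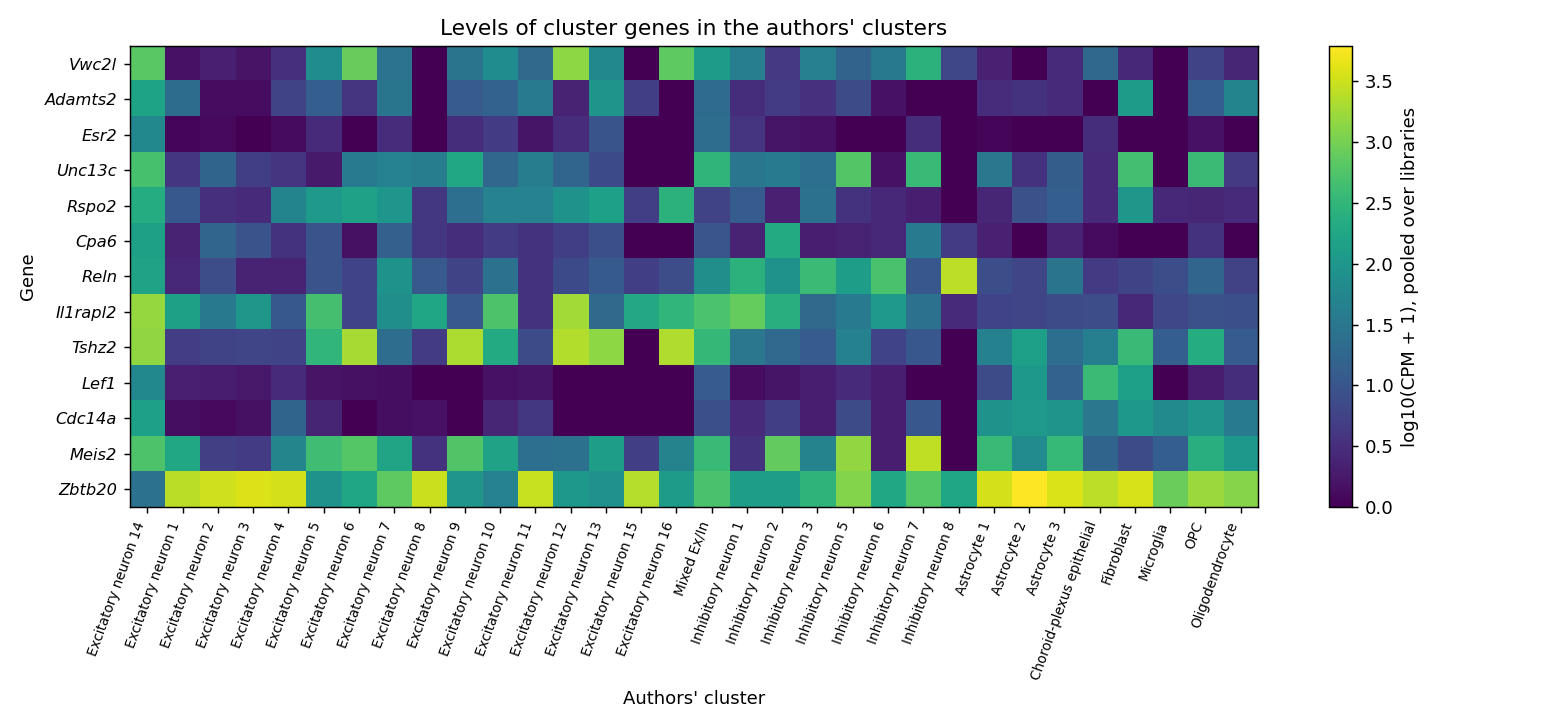
Levels of the 5 markers and of 8 further genes described in the text (rows) in the authors' 32 clusters (columns, Excitatory neuron 14 at the left), as log10(CPM + 1) pooled over libraries. Esr2 is at 58.6 CPM in Excitatory neuron 14 and at most 22.0 CPM elsewhere, and Zbtb20 is lowest there at 24.8 CPM, with Excitatory neuron 10 next at 47.2 CPM.

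The cluster was glutamatergic. The 9 glutamatergic markers summed to 1668 CPM against 1787 CPM in the other excitatory nuclei, with overlapping libraries. Of the 9, 4 were higher in the cluster, and Slc17a8 had 0 UMIs. Slc17a7, the vesicular glutamate transporter of cortical and hippocampal neurons, was at 209 CPM in the cluster against 247 CPM in the other excitatory nuclei. Sv2b, which codes for a synaptic vesicle protein, was at 435 against 214 CPM. The 6 GABAergic markers, Gad1 and Gad2 among them, summed to 8.87 against 42.4 CPM, with 0 UMIs of Dlx6os1 and Erbb4. Oligodendrocyte markers summed to 97.6 against 96.2 CPM, microglial markers to 172 against 154 CPM, astrocyte markers to 21.3 against 43.5 CPM and choroid plexus markers to 208 against 231 CPM. Of the fibroblast list, Dcn, a proteoglycan gene, was at 95.8 against 16.7 CPM, while Col1a1 and Col1a2 had 0 UMIs.

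Markers of hippocampal CA3 and dentate granule neurons were low, and those of CA1 were split. The CA3 list summed to 101 CPM in the cluster against 646 CPM in the other excitatory nuclei, with 0 of 6 members higher, and the dentate granule list to 124 against 512 CPM, also with 0 of 6 higher. The layer 6 corticothalamic list summed to 47.9 against 905 CPM and the CA2 list to 49.7 against 88.1 CPM. Of the CA1 list, 3 of 6 members were higher, and 2 of 6 had a UMI in at least 20% of the cluster's nuclei. Its sum was 534 against 378 CPM, without overlap of libraries, at 438 to 677 CPM against 369 to 387 CPM. How often genes or lists separate in this way was not counted. Lists that shared Tshz2 or Vwc2l with the leading genes were high. The near-projecting cortex list summed to 2171 against 334 CPM and the subiculum list to 1573 against 266 CPM. Tshz2, a zinc finger transcription factor, was alone at 1463 against 241 CPM. Excitatory neuron 12, 16, 9 and 6 had more Tshz2, at 2266, 2139, 2115 and 1963 CPM, and Excitatory neuron 10 had less, at 207 CPM. The basolateral amygdala list, which holds Rspo2 and Adamts2, summed to 513 against 218 CPM. Of the medial and cortical amygdala list, Esr1, Lhx9, Otp and Sim1 had 0 UMIs, and Meis2, a homeobox gene, made up most of its 538 CPM against 158 CPM. Meis2, at 534 CPM in the cluster, was at 621 CPM in Excitatory neuron 6, 572 in Excitatory neuron 9 and 150 in Excitatory neuron 10. Since these lists share genes with the markers of the cluster and no place in the tissue was measured, the nuclei are called by their leading genes alone.

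Among 3967 genes with a UMI in at least 20% of the nuclei and in every library, the 25 with the largest excess over the other excitatory nuclei ranged from 2.25 to 4.27 on the log2((CPM + 10)/(CPM + 10)) scale. For 24 of the 25 the cluster's libraries all lay above those of the other excitatory nuclei. The choice of genes by this same excess made that likely, so it is no further support. The share of all 3967 genes with such a separation was not counted. Of the 25, 6 were higher here than in any other of the 32 clusters. After Unc13c, at 4.27, came Cdc14a, a phosphatase of the cell division cycle, at 138 against 2.40 CPM. Il1rapl2, an interleukin 1 receptor-like synaptic protein, was at 1548 against 164 CPM, with Excitatory neuron 12 higher, at 1841.5 CPM. It was at 533, 10.6 and 4.71 CPM in Excitatory neuron 10, 9 and 6. Camk2d, the delta subunit of the calcium and calmodulin kinase II, was at 768.5 against 77.7 CPM. Camk2a, the alpha subunit, was lower in the cluster, at 552 against 972 CPM.

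Other leading genes fell into recognisable groups. Receptors and channels included Grm8, a presynaptic glutamate receptor, at 792 against 158 CPM, Scn9a, a sodium channel, at 151 against 21.5 CPM, and Prlr, the prolactin receptor, at 106.5 against 12.5 CPM. Adhesion genes included Pcdh15 at 1480 against 257 CPM, Pcdh7 at 1644 against 314 CPM and Sgcd, of the sarcoglycan complex, at 2440 against 382 CPM. Signalling genes included the G protein regulator Rgs6 at 557 against 77.3 CPM, the phosphodiesterase Pde1c at 105 against 7.43 CPM, Elmo1, a regulator of Rac, at 335 against 50.6 CPM, and the calcium-binding Necab1. Pbx3, a homeobox partner of Meis proteins, and the long noncoding RNA Rmst, at 348 against 47.4 CPM, completed the named ones, and 4 of the 25 were gene models with clone names.

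Genes that were lower in the cluster began with Zbtb20, a zinc finger repressor known from hippocampal CA1 and dentate neurons. It had 14 UMIs, or 24.8 CPM, against 2425 CPM in the other excitatory nuclei, and was in 10.7% against 82.9% of nuclei, or 2.91% against 73.0% at 1000 UMIs per nucleus; oligodendrocytes, which express it, had 77.8%. The level was also low in the clusters most like this one, at 47.2 CPM in Excitatory neuron 10, 95.2 in Excitatory neuron 9 and 172 in Excitatory neuron 6. Zbtb20 was chosen after its values were seen, as were Sema5a, a semaphorin with 0 UMIs in the cluster against 205 CPM (3 counts in all allow up to 5.32 CPM), and Hs3st4, a heparan sulphate enzyme, at 8.87 against 653 CPM. Among the genes still present in at least 20% of the cluster's nuclei and in every library, the lowest were Nfib at 71.0 against 614 CPM, Tafa1 at 167 against 1295 CPM and Rfx3 at 137 against 788 CPM. Nfib and Rfx3 code for transcription factors and Tafa1 for a secreted brain protein. Lrp1b, Cacnb2, Shisa6, Adcy2, Zfpm2 and Ryr3 followed, at 0.182 to 0.218 of the level of the other excitatory nuclei.

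Members of the markers' families were higher or lower than in the other excitatory nuclei. With the marker itself counted, 10 of 18 members were higher in the Munc13 and vesicle release list. In the R-spondin list 9 of 22 were higher, and in the BMP list 7 of 19. The share of all genes that were higher was not counted, so these counts are no result particular to the lists. Of the Munc13 genes, Unc13a was at 60.3 CPM against 114 CPM in the other excitatory nuclei, below the range of their libraries, and Unc13b at 224 against 131 CPM, within overlapping ranges. The calcium sensor Syt1 was at 3967 against 2512 CPM and Syt2 at 44.4 against 4.40 CPM, both without overlap. In the oestrogen list, Esr1 and Gper1 had 0 UMIs, as did Cyp19a1, which codes for aromatase, and Pgr, the progesterone receptor, was at 40.8 against 28.0 CPM with overlapping libraries. The mineralocorticoid receptor Nr3c2 was lower, at 193 against 694 CPM without overlap. The share of all genes without overlap was not counted, so the separation of Unc13a, Syt1, Syt2 and Nr3c2 is no result particular to them. In the R-spondin list, Rspo3 was at 115 against 67.4 CPM, the receptor Lgr4 at 76.3 against 49.2 CPM, and Znrf3, the ligase that R-spondins hold off, at 24.9 against 72.6 CPM. Rspo1, Rspo4, Lgr5 and Lgr6 had 0 UMIs. In the BMP list, Chrd, an antagonist like Vwc2l, was at 114 against 170 CPM, and Nog, Bmp2, Bmp4, Bmp6 and Bmp7 had 0 UMIs. In the ADAMTS list, Col1a1 and Col3a1, genes of the procollagens that Adamts2 cuts, had 0 UMIs, and Col11a1 was at 8.87 against 134 CPM.

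Several glutamate receptor genes differed in level from the other excitatory nuclei. The AMPA subunit Gria4 was at 836 CPM against 241 CPM in the other excitatory nuclei, while Gria1 was at 454 against 1618 CPM, Gria2 at 1360 against 2438 CPM and Gria3 at 284 against 811 CPM. Of the NMDA subunits, Grin2a was at 999 against 2245 CPM and Grin2b at 1244 against 1978 CPM. The libraries of the cluster did not overlap those of the other excitatory nuclei for any of these 6 genes. The share of all genes without overlap was not counted, so this is no result particular to the receptors. Grin1 was at 339 against 299 CPM, with overlapping libraries. Mapt, the mouse tau gene, was at 288 against 274 CPM, also with overlap, and no source used here says whether reads of the human transgene were counted as Mapt.

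The cluster was most like Excitatory neuron 10, 9 and 6 across 16483 genes, with correlations of log2(CPM + 10) of 0.943, 0.943 and 0.939, as a description over genes that share libraries. At least 3 of the 5 markers had a UMI in 0.769% of nuclei of Excitatory neuron 10, 0% of Excitatory neuron 9 and 5.12% of Excitatory neuron 6, against the 58.3% of Excitatory neuron 14. At least 2 had a UMI in 7.18%, 4.3% and 38.8% of nuclei of these clusters, against 77.7%. A second annotation by the authors, from a clustering of neurons alone, put 98 of the 103 nuclei in 1 cluster, which held 102 nuclei, and 5 in another. The median doublet score deposited by the authors was 0.0758 in the cluster and 0.0455 in the other excitatory nuclei. This was the second highest of 32 clusters, after Excitatory neuron 7 at 0.0810, and the part of doublets in the results was not tested. Of the 7 nuclei with a score of at most 0.05, 7 had a Vwc2l UMI, 3 an Unc13c UMI, 2 an Rspo2 UMI, 1 an Adamts2 UMI and 1 an Esr2 UMI.

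The nuclei of the cluster differed in their levels of several genes. A UMI of Cpa6, a carboxypeptidase gene, or of Reln, which codes for the secreted protein reelin, was found in 29 of the 103 nuclei, and 74 had neither. Cpa6 had a UMI in 23.3% of the cluster, 2.20% of other excitatory nuclei and 0% of oligodendrocytes, and Reln in 20.4%, 2.03% and 0.619%. At 1000 UMIs per nucleus the shares of the cluster and of other excitatory nuclei were 11.7% and 0.70% for Cpa6, and 7.77% and 0.800% for Reln. Both genes were found together in 16 nuclei of the cluster, or 15.5%, against 6 of 12325 other excitatory nuclei, or 0.0487%. In the 29 nuclei, Il1rapl2 was at 3548 CPM against 382 CPM in the 74, Tenm1, a teneurin adhesion gene, at 766 against 129 CPM, and Cdh13, a cadherin gene, at 1273 against 19.7 CPM. Trps1, Lef1 and Rspo2 were likewise higher in the 29, at 357 against 36.5 CPM, 135 against 11.2 CPM and 366 against 135 CPM. Rmst was at 24.1 against 537 CPM, Sgcz, a sarcoglycan gene, at 72.3 against 733 CPM, Pbx3 at 67.5 against 452 CPM, Meis2 at 159 against 753 CPM and Cdc14a at 33.7 against 199 CPM.

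The markers of the whole cluster were found both in the nuclei with a Cpa6 or Reln UMI and in those with neither. Unc13c stood at 588 CPM in the 29 nuclei and 416 CPM in the 74, Adamts2 at 159 and 152 CPM, Esr2 at 77.1 and 47.8 CPM, and Vwc2l at 525 and 742 CPM. Rspo2 differed more, at 366 and 135 CPM, with a UMI in 86.2% of the 29 and 35.1% of the 74. Esr2 had a UMI in 44.8% and 16.2%. Across the 103 nuclei, Cpa6 went with Reln (r = 0.634) and with Il1rapl2 (r = 0.676), and against Meis2 (r = -0.573), as correlations of log2(UMIs per 10000 + 1). These are descriptions over nuclei that share libraries and differ in depth. The 29 nuclei had a median of 7017 UMIs and a doublet score of 0.0847, and the 74 had 4389.5 UMIs and 0.0752. Depth itself makes a UMI more likely, and its part in the split was not tested. The split was chosen after values were seen.

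**Figure D3:**
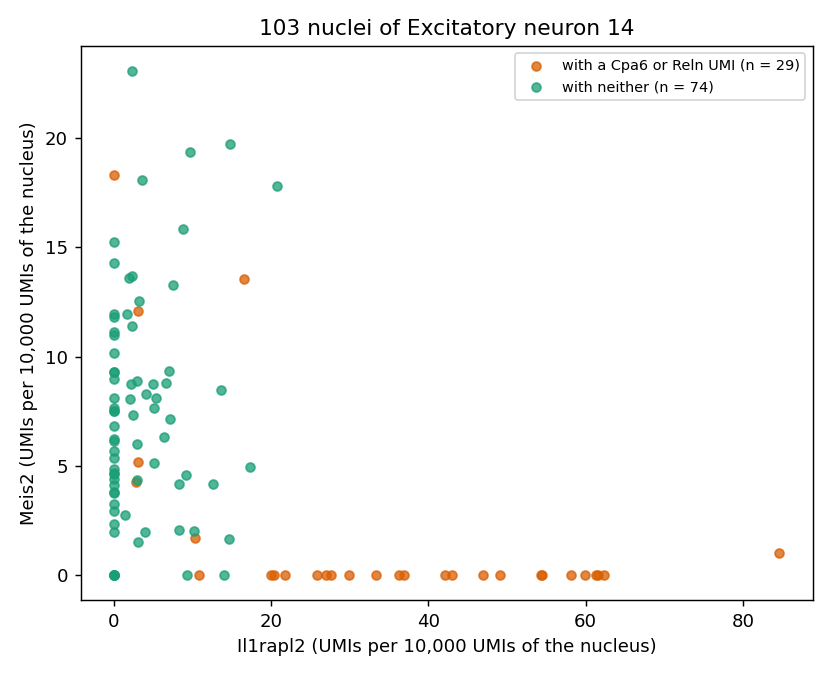
Il1rapl2 (horizontal axis) and Meis2 (vertical axis) in each of the 103 nuclei, as UMIs per 10000 UMIs of the nucleus, coloured by whether the nucleus had a Cpa6 or Reln UMI (29 nuclei) or neither (74 nuclei). High Il1rapl2 goes with Cpa6 or Reln and with little or no Meis2.

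The cluster was a smaller share of left than of right hippocampi in these libraries. It made up 0.163% of nuclei in TBI VEGFC left (exact Clopper-Pearson 95% interval 0.0599 to 0.355) and 0.147% in TBI GFP left (0.0637 to 0.290). In the right hippocampi it made up 0.374% in TBI VEGFC right (0.214 to 0.606), 0.465% in TBI GFP right (0.295 to 0.696), 0.566% in sham VEGFC right (0.393 to 0.791) and 0.371% in sham GFP right (0.212 to 0.602). Both left libraries lay below the 4 right ones, also as a share of excitatory nuclei, at 0.342% to 0.396% against 0.870% to 1.21%. The intervals cover counting error only, and side and impact cannot be told apart here, since no left sham library was analysed. The log2 ratio of the share, VEGFC over GFP, was 0.15 in TBI left, -0.31 in TBI right and 0.61 in sham right. Its mean was 0.15 (exact two-sided sign-flip permutation over 3 contexts, p = 0.75, where the smallest possible p is 0.25, so this design cannot reach 0.05). The direction was not the same in all 3 contexts. The labels do not tie the hippocampi to individual mice, so the TBI left and TBI right contexts may not be independent, here and in the comparisons of genes.

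**Figure D4:**
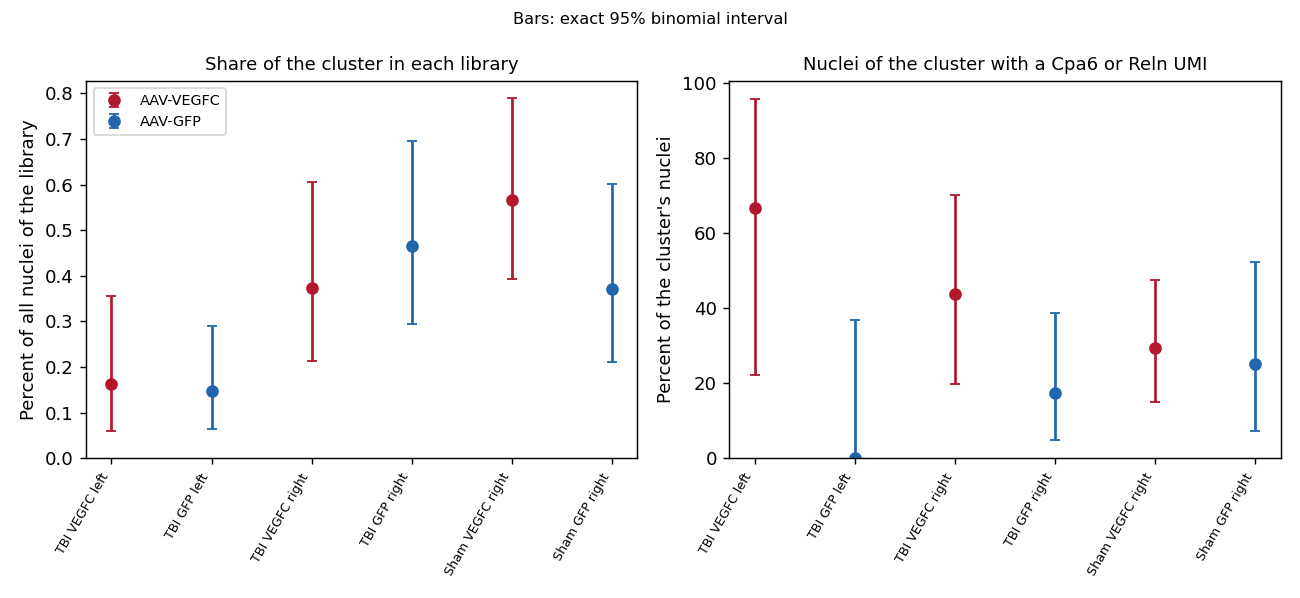
Share of the cluster among all nuclei of each library (left panel, percent) and share of its nuclei with a Cpa6 or Reln UMI (right panel, percent), with exact 95% binomial intervals. Both left libraries are at or below 0.163% in the left panel, and in the right panel VEGFC lies above GFP in each of the 3 contexts, with overlapping intervals.

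The makeup of the cluster differed between libraries. Nuclei with a Cpa6 or Reln UMI were 4 of 6 in TBI VEGFC left and 0 of 8 in TBI GFP left, 7 of 16 in TBI VEGFC right and 4 of 23 in TBI GFP right, and 10 of 34 in sham VEGFC right and 4 of 16 in sham GFP right. The share was thus higher with VEGFC in all 3 contexts, at 21 of 56 against 8 of 47 nuclei in all. Median depth of the cluster's nuclei was 10031 UMIs in TBI VEGFC left, 4439 in TBI GFP left, 6526 in TBI VEGFC right, 4375 in TBI GFP right, 4389.5 in sham VEGFC right and 6167 in sham GFP right. Since the split was chosen after these values were seen, it was not tested.

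The vector comparison asked which genes differ between VEGFC and GFP libraries over the 3 contexts. With edgeR's quasi-likelihood test and Benjamini-Hochberg adjustment, 0 of 2337 genes passed an adjusted p of 0.05 in either direction (0% called). At an unadjusted p under 0.05 there were 117 genes, or 5.01%, and DESeq2 and limma-voom also called 0, with 27 and 149 below that unadjusted level. The lowest adjusted p was that of Tenm1. It was at 792 CPM in TBI VEGFC left and 158 in TBI GFP left, 650 in TBI VEGFC right and 210.2 in TBI GFP right, and 306 in sham VEGFC right and 139 in sham GFP right. VEGFC was higher in 3 of 3 contexts, and the log2 fold was 1.66 ± 0.31 (SE, edgeR, adjusted p = 0.331).

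Il1rapl2 was at 2690 CPM in TBI VEGFC left and 236.5 in TBI GFP left, 2775 in TBI VEGFC right and 955 in TBI GFP right, and 1437 in sham VEGFC right and 896 in sham GFP right. Every VEGFC library lay above every GFP library, at a log2 fold of 1.68 ± 0.38 (SE, edgeR, adjusted p = 0.513). Cpa6 had 346.5 CPM in TBI VEGFC left and 0 in TBI GFP left, 262 in TBI VEGFC right and 35.0 in TBI GFP right, and 130.1 in sham VEGFC right and 74.6 in sham GFP right. Its VEGFC libraries also lay above its GFP libraries, at a log2 fold of 2.29 ± 0.56 (SE, edgeR, adjusted p = 0.513). Prkg1, a cyclic GMP-dependent kinase, had a log2 fold of 1.04 ± 0.26 (SE, edgeR, adjusted p = 0.513).

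Tenm1 and Il1rapl2 were high in nuclei with a Cpa6 or Reln UMI, whose share of the cluster was higher with VEGFC in all 3 contexts. The part of makeup in their folds was not tested. Cpa6 itself defines that split. In the 74 nuclei with neither, edgeR's test called 0 of 1196 genes, with 35 below an unadjusted p of 0.05, and the Il1rapl2 log2 fold was 0.98 (adjusted p = 1.00) while that of Prkg1 was 1.43 (adjusted p = 0.381). Leaving out any 1 library gave calls: edgeR's test called 27 genes without sham GFP right, 10 without sham VEGFC right and 2 or 3 without any other library. The filter then also kept more genes, 2832 to 3386, and the cause was not tested. Il1rapl2 passed in 9 of 14 alternative settings, at adjusted p-values from 3.16e-07 to 1.00, and Tenm1 and Cpa6 each in 4 of 13, at 0.000503 to 0.745 and 0.000510 to 1.00.

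Genes on the lower side did not pass either. Pdzrn3, a ubiquitin ligase of synapses, was at 49.5 CPM in TBI VEGFC left and 263 in TBI GFP left, 48.5 in TBI VEGFC right and 280.3 in TBI GFP right, and 254 in sham VEGFC right and 501 in sham GFP right. VEGFC was lower in 3 of 3 contexts, at a log2 fold of -1.58 ± 0.38 (SE, edgeR, adjusted p = 0.513). Cacnb2, a calcium channel subunit, was also lower in 3 of 3, at -1.08 ± 0.33 (SE, edgeR, adjusted p = 0.841), and in the 74 nuclei with neither Cpa6 nor Reln its log2 fold was -0.43. Chrm3, a muscarinic receptor, and the noncoding Mir670hg had log2 folds of -1.72 and -2.18 (edgeR, adjusted p = 0.711 and 0.513), and 32.2% and 26.0% of their UMIs came from 1 nucleus.

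**Figure D5:**
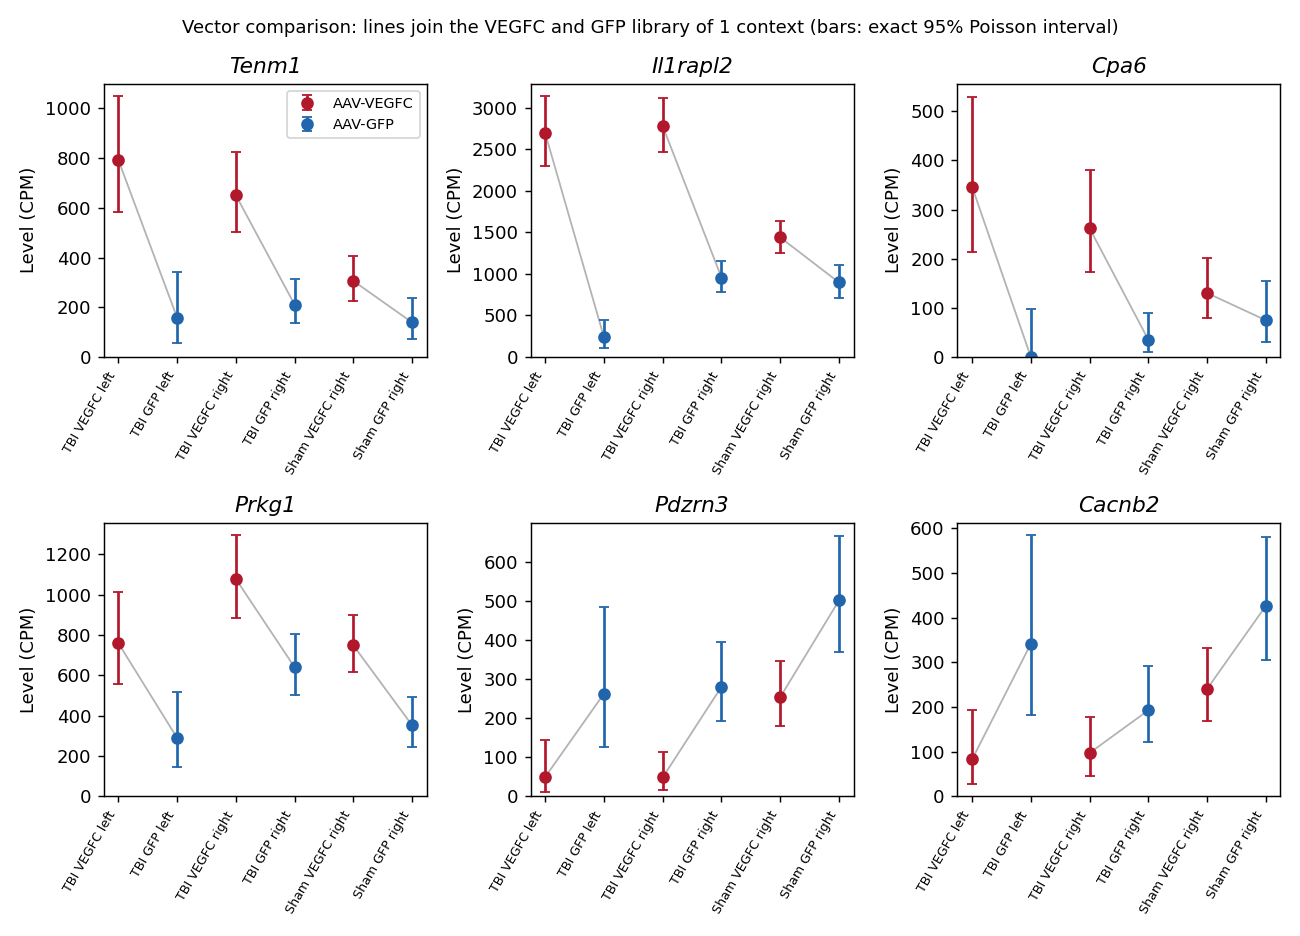
Levels (vertical axis, CPM) of 6 genes named for the vector comparison in the VEGFC and GFP library of each context, joined by lines, with exact 95% Poisson intervals. Tenm1, Il1rapl2, Cpa6 and Prkg1 are higher with VEGFC in all 3 contexts, Pdzrn3 and Cacnb2 are lower, and none passed the adjusted test over 2337 genes.

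None of the 4 markers tested passed in the vector comparison. The log2 fold of VEGFC over GFP was 0.37 ± 0.27 for Unc13c, -0.0186 ± 0.26 for Vwc2l, 0.49 ± 0.41 for Adamts2 and 0.95 ± 0.32 for Rspo2 (SE, edgeR, adjusted p = 0.944, 0.996, 0.959 and 0.841). Rspo2 was higher with VEGFC in 3 of 3 contexts. Esr2 had too few counts for the test. Vegfc, Kdr and Flt4, the growth factor and its receptors, had 0 UMIs in the cluster in every library, also in VEGFC libraries, and Flt1 had 2 UMIs. Over the cluster, 3 counts correspond to 5.32 CPM, so lower levels were not detectable at this depth. In single libraries 3 counts correspond to 49.5 CPM in TBI VEGFC left, 29.1 in TBI VEGFC right and 19.5 in sham VEGFC right. No source used here says whether transcripts of the virus would be counted as Vegfc. The Mapt log2 fold was 0.11 ± 0.29 (SE, edgeR, adjusted p = 0.976).

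The injury comparison set TBI right against sham right. EdgeR's quasi-likelihood test called 0 of 2337 genes (0%), with 55 genes, or 2.35%, at an unadjusted p under 0.05, and DESeq2 called 0, with 5, while limma-voom called 1, with 122. Sgcz had the lowest p. It was at 165 CPM in TBI VEGFC right and 263 in TBI GFP right, against 605 in sham VEGFC right and 1024 in sham GFP right, so the groups did not overlap. The log2 fold was -1.93 ± 0.31 (SE, edgeR, adjusted p = 0.0727), and it ran from -1.95 to -1.67 over 13 alternative settings, 5 of which passed, at adjusted p-values from 5.67e-06 to 0.999. Sgcz was 733 CPM in nuclei with neither Cpa6 nor Reln and 72.3 CPM in the others, and within the nuclei with neither its log2 fold was -1.67 (edgeR, adjusted p = 0.470).

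Other genes with low p-values in the injury comparison included Clec16a, Trps1, Tpr and Nell1 on the higher side, at log2 folds of 0.97 to 1.94 (edgeR, each adjusted p = 0.995). Clec16a, which acts in the removal of mitochondria, was at 204 CPM in TBI VEGFC right and 158 in TBI GFP right, against 65.0 in sham VEGFC right and 32.0 in sham GFP right. On the lower side were Mir670hg, Pdzrn3, Cacnb2 and Tmem108, at -2.48 to -1.10 (edgeR, each adjusted p = 0.995). Pdzrn3 overlapped between the groups, with 280.3 CPM in TBI GFP right against 254 CPM in sham VEGFC right. Nell1 and Trps1 were at 680 and 357 CPM in nuclei with a Cpa6 or Reln UMI, against 152 and 36.5 CPM in those with neither. In the nuclei with neither, the Nell1 fold turned to -0.0385 (edgeR, adjusted p = 0.994), and Trps1 was not among the genes tested. The part of makeup in these folds was not tested. The markers had log2 folds of 0.20 to 0.59 and did not pass (edgeR, each adjusted p = 0.995). This comparison and the next share the TBI right libraries.

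The side comparison set TBI left, opposite to the impact, against TBI right. It called 0 of 2337 genes by edgeR's quasi-likelihood test (0%), with a lowest adjusted p of 0.999. An unadjusted p under 0.05 was reached by 68 genes, or 2.91%, and DESeq2 and limma-voom called 0, with 4 and 105. Nnat, a small membrane protein gene, was at 280.5 CPM in TBI VEGFC left and 78.8 in TBI GFP left, against 669.5 in TBI VEGFC right and 420.5 in TBI GFP right. The left libraries lay below the right ones, at a log2 fold of -1.60 ± 0.41 (SE, edgeR, adjusted p = 0.999). Mgat4c, a glycosyltransferase gene, had 0 UMIs in both left libraries, against 204 CPM in TBI VEGFC right and 35.0 in TBI GFP right. Clvs2, Ppp2r2c, Slit2, Sgcz and the mitochondrial mt-Co2 had higher values on the left, at log2 folds of 0.99 to 1.75 (edgeR, each adjusted p = 0.999). With 14 nuclei on the left, depth limits this comparison, and leaving out TBI VEGFC left gave 12 calls, each on the lower side.

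Whether the VEGFC fold differed between TBI and sham was asked with an added term for injury by vector, which leaves 1 residual degree of freedom. EdgeR's quasi-likelihood test called 8 of 2337 genes (0.342%), 6 with a higher VEGFC fold after TBI (0.257%) and 2 with a lower one (0.0856%). In this fit edgeR's prior degrees of freedom were infinite, so the p-values rest on a spread shared by all genes. Cdh13 was at 1436 CPM in TBI VEGFC left and 0 in TBI GFP left, 737 in TBI VEGFC right and 219 in TBI GFP right, and 325 in sham VEGFC right and 352 in sham GFP right. VEGFC was above GFP after TBI on both sides and just below it in sham (difference of log2 folds 2.81 ± 0.64 SE, edgeR, adjusted p = 0.00632). Kirrel3, an adhesion gene of synapses, was at 924 CPM in TBI VEGFC left and 158 in TBI GFP left, 1300 in TBI VEGFC right and 639 in TBI GFP right, and 429 in sham VEGFC right and 938 in sham GFP right (2.58 ± 0.58 SE, edgeR, adjusted p = 0.00505).

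Gpc5, a glypican gene, had the same pattern (2.96 ± 0.66 SE, edgeR, adjusted p = 0.00505), as did Dpyd, of pyrimidine breakdown, with 1 UMI in each TBI GFP library (4.75 ± 1.18 SE, edgeR, adjusted p = 0.0189). Tmsb4x, an actin-binding peptide gene, ran the other way, at 82.5 CPM in TBI VEGFC left and 315 in TBI GFP left, 136 in TBI VEGFC right and 210.2 in TBI GFP right, and 254 in sham VEGFC right and 42.7 in sham GFP right (-3.62 ± 0.85 SE, edgeR, adjusted p = 0.00895). The other 3 calls were gene models with clone names. Cdh13, Gpc5 and Kirrel3 were at 1273, 627 and 1210 CPM in nuclei with a Cpa6 or Reln UMI, against 19.7, 104 and 483 CPM in those with neither, and the part of makeup in these calls was not tested. In the nuclei with neither, edgeR called 0 of 1196 genes, with 43 at an unadjusted p under 0.05. The differences there were 3.30 for Gpc5, 1.95 for Kirrel3 and -2.96 for Tmsb4x (edgeR, each adjusted p = 0.988), and Cdh13 and Dpyd were not among the genes tested. RLE size factors, library totals, no filter, DESeq2 and limma-voom each called 0 as well, with 126, 117, 212, 13 and 233 genes below that unadjusted level.

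Lists of related genes were counted in the same tests. Of the Munc13 and vesicle release list, 9 of 18 members were tested and 0 passed in any comparison, with 7 above 0 for VEGFC over GFP and a median log2 fold of 0.27, against 0.0084 over all 2337 genes. Of the AMPA and NMDA receptor list, 7 of 10 were tested and 0 passed, with a median of 0.22 for VEGFC over GFP. Of the tau and tau kinase list, 7 of 15 were tested and 0 passed, with 7 above 0 for VEGFC over GFP and a median of 0.28. For TBI right against sham right the medians were 0.31, 0.094 and 0.30 for these 3 lists, against -0.0097 over all genes. For TBI left against TBI right they were -0.15, -0.022 and 0.18, against -0.0063. For the difference of the VEGFC fold they were 0.14, 0.33 and 0.39, against -0.0022. The first list includes the marker Unc13c, and the share of all tested genes above 0 was not counted. The steroid receptor, R-spondin, BMP and ADAMTS lists had 4, 4, 3 and 2 tested members, and 0 passed in any comparison.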

How the data were processed

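Single-nucleus RNA was measured in 6 libraries. Per the submitters' processing notes, Cell Ranger 7.0.1 and Scanpy were used with build mm10, and no source used here gives their settings. The authors deposited UMI counts per nucleus for each gene, as whole numbers without scaling. The deposited metadata give the authors' cluster names, the percent of mitochondrial and ribosomal UMIs, and a doublet score that reaches 0.099. In 26823 nuclei the counts summed to the deposited total, and in the rest to at most 9 UMIs less. Doublets were not called again, as nuclei above that score are not among those analysed.

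Counts were summed over the cluster's nuclei in each library and tested with edgeR 4.0.16 (R 4.3.3) after filterByExpr and TMM, with a term for vector and one for the 3 contexts of injury and side, which leaves 2 residual degrees of freedom. Prior degrees of freedom were 10.9. SEs were derived from the log2 fold and its F statistic. P-values were adjusted over all genes tested, at a threshold of 0.05. Since no combination is repeated, p-values rest on the spread between these libraries around additive effects, shared in part across genes, which may be technical. On simulated counts, the vector test recovered 96.5% of 200 genes changed 4-fold, with 8 false calls among 2299 genes. The changed genes had a mean of at least 50 CPM. Spread in the simulation followed gene level alone, with no difference between contexts. It therefore does not give the share of real 4-fold changes that would be called.

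The cluster, its markers and all gene lists were chosen with earlier results of these data known. Named are the 5 markers, Vegfc, Flt1, Kdr, Flt4 and Mapt, the 25 genes with the largest and the 10 with the lowest ratio to other excitatory nuclei, up to 10 genes per direction past the threshold (or the 5 with the smallest p), and list members of high level. Clone-named gene models were only counted. Level intervals are exact Poisson intervals and share intervals exact binomial ones, both for counting error only. Coordinates come from the GENCODE annotation of mm10. Alternatives were RLE size factors, library totals, no filter, DESeq2 1.42.0, limma-voom (limma 3.58.1), no context term, a doublet score of at most 0.05 and each library left out. Right hippocampi alone and nuclei with no Cpa6 or Reln UMI were added after seeing the data. Some genes that the rule picked are not reported here.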

Additional observations from a re-analysis of the deposited data

Results flagged for a closer look

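The VEGFC fold differed between TBI and sham for 8 genes by a test of the difference itself (edgeR's quasi-likelihood test, injury by vector term, adjusted over 2337 genes). The differences of log2 folds, TBI minus sham, were 4.75 for Dpyd, 2.96 for Gpc5, 2.81 for Cdh13, 2.58 for Kirrel3 and -3.62 for Tmsb4x, and the other 3 genes have clone names. Each rests on 1 sham library per vector and 1 residual degree of freedom, and the 6 alternatives that could be fitted called 0 genes, at adjusted p-values from 0.469 to 1.00 for the 5 named genes. The differences kept their direction over these alternatives, at 3.84 to 4.76 for Dpyd, 2.82 to 3.30 for Gpc5, 2.02 to 4.63 for Cdh13, 1.95 to 2.79 for Kirrel3 and -3.80 to -2.96 for Tmsb4x. Dpyd and Cdh13 were not tested in nuclei with no Cpa6 or Reln UMI. With 1 library per combination, no group had enough samples to look for a library far from the others.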

How the results depend on the processing

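For VEGFC against GFP, where 0 genes were called, edgeR called 8 with no context term, 10 with no filter on low counts, 3 in right hippocampi alone, and 2 to 27 with each library left out. For TBI right against sham right it called 1 with no filter, 2 in right hippocampi alone and 0 to 2 with each library left out, and limma-voom called 1. For TBI left against TBI right it called 1 with no filter and 0 to 12 with each library left out. For the difference of the VEGFC fold between TBI and sham, with 8 calls, DESeq2, library totals, limma-voom, no filter, RLE size factors and nuclei with no Cpa6 or Reln UMI gave 0. In each case the cause was not tested.

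The log2 ratio of the share, 0.15, was 0.11 over excitatory nuclei and ran from -0.0836 (without either sham library) to 0.38 with libraries left out. Folds near 0 changed direction. For VEGFC over GFP, Vwc2l was 0.0664 with no filter, 0.13 in right hippocampi and 0.0012 in nuclei with no Cpa6 or Reln UMI, and with libraries left out it ran from -0.27 to 0.13 and Mapt from -0.14 to 0.25. For TBI right against sham right, Nell1 was -0.0385 in nuclei with no Cpa6 or Reln UMI, and with libraries left out Vwc2l ran from -0.0905 to 0.60, Adamts2 from -0.49 to 1.16 and Rspo2 from -0.0625 to 0.55. For TBI left against TBI right, Vwc2l was -0.0706 with no filter, Adamts2 was -0.0086 in nuclei with no Cpa6 or Reln UMI, and with libraries left out Vwc2l ran from -0.17 to 0.31, Adamts2 from -0.63 to 1.03 and Mapt from -0.0973 to 0.54. Of the 25 leading genes, 15 were shared with a ranking against all other nuclei and 22 with one by the mean over libraries.

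No paired analysis was possible because the labels give each library its own replicate number and do not say whether left and right libraries share mice. A doublet score of at most 0.05 left 7 nuclei in 3 libraries and could not be fitted. The injury by vector term could not be fitted with a library left out or in right hippocampi alone, since no residual degree of freedom was left. Depth limits the left libraries most, with 6 and 8 nuclei, where the limit of 3 counts is 49.5 and 78.8 CPM.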

Other observations

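The 20 immediate early genes summed to 650 CPM in the cluster against 590 CPM in the other excitatory nuclei, with Homer1, a synaptic scaffold gene, at 243 against 202 CPM and Fosb, Egr2 and Nptx2 at 0 UMIs. The 16 chaperone genes of the endoplasmic reticulum summed to 618 against 683 CPM, with Hspa5, the main chaperone, at 72.8 against 59.9 CPM. The libraries of the cluster overlapped those of the other excitatory nuclei for both lists. The 10 VEGF ligands and receptors summed to 236 against 424 CPM without overlap, at 78.8 to 369 CPM against 394 to 458 CPM. Most of it came from the co-receptors Nrp1, at 144 against 262 CPM, and Nrp2, at 47.9 against 114 CPM. How often genes or lists separate in this way was not counted. None of these lists had a member past the threshold of edgeR's test in any comparison, with 1 tested member of the first list, 3 of the second and 1 of the third.

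The upper layer cortex list, with Cux2 and Cux1, summed to 305 CPM in the cluster against 241 CPM in the other excitatory nuclei, and the layer 5 intratelencephalic list to 1613 against 332 CPM. This list ran from 263 CPM in TBI GFP left to 2824 CPM in TBI VEGFC right, since it holds Il1rapl2. The thalamic list summed to 831 against 459 CPM, with Tcf7l2, Calb2 and Zic1 at 0 UMIs. Of the Cajal-Retzius list, Reln was at 153 against 8.16 CPM, and Trp73, Lhx1 and Lhx5 had 0 UMIs. The layer 6b list summed to 3.55 against 10.9 CPM, the mossy cell list to 26.6 against 38.2 CPM, and the list of layer 6 intratelencephalic and claustrum neurons to 142 against 339 CPM.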
